A study of Mus musculus with 7 samples.

Results

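The genes described here are Ly6a, Anxa1, Anxa3, Clu, Il33, Msln and Yap1, 7 of the 43346 genes in the count table, chosen as genes of the fetal-like repair state of the gut epithelium and set against the crypt stem cell marker Lgr5. Their rows were found by Ensembl identifier, and all 7 were read in all 7 tumors and passed the filter on low counts. Each library came from the whole of 1 colon tumor, so epithelium, stroma, vessels and blood cells contribute together, and in such bulk samples fewer cells of a type and less RNA per cell cannot be told apart. There were 3 tumors from mice with Dnmt3a(+/+)-BM and 4 from mice with Dnmt3a(+/-)-BM, where BM is the bone marrow graft. The donors of both grafts carried Mx1-Cre, a deleter that poly(I:C) switches on in blood-forming and some other cells, and the recipients were wild-type mice, C57BL6/J and 8 weeks old by the labels and younger mice of a CD45.1 congenic strain by the methods. Colitis-associated cancer (CAC) was induced in all mice, controls included, by the carcinogen azoxymethane (10 mg/kg), followed by 3 rounds of drinking water with 3% dextran sulfate sodium (DSS), which injures the colon lining. The comparison asks how the tumors differ when 1 copy of Dnmt3a is lost in the blood system of the host and not in the tumor's own epithelium. Tumors came from 2 transplantation experiments: BMT18 holds Dnmt3a(+/+)-BM replicates 1 and 2 and Dnmt3a(+/-)-BM replicates 1 and 2, and BMT8 holds Dnmt3a(+/+)-BM replicate 3 and Dnmt3a(+/-)-BM replicates 3 and 4.

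In the injured intestine, surviving epithelial cells can switch off the Lgr5 stem cell program and turn on genes that are otherwise used in the fetal gut, among them Ly6a (Sca-1), annexins and clusterin. The switch depends on YAP, a coactivator that enters the nucleus when the Hippo kinases are off and binds DNA through TEAD factors. Several of these genes are also used by stroma, vessels, blood cells or squamous epithelium, so their level in a whole tumor is not specific to repair epithelium.

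Total counts were between 38472738 and 64314999 per tumor, and levels are given in CPM, each gene's count scaled to a common library size with TMM factors. In the whole tumors, Dnmt3a was between 20.2 and 24.3 CPM with Dnmt3a(+/+)-BM and between 22.0 and 43.0 CPM with Dnmt3a(+/-)-BM, a log2 difference of 0.43 (SE 0.24, edgeR adjusted p = 0.542), and the lost exon cannot be seen in gene counts. Every other library had its lowest rank correlation with Dnmt3a(+/-)-BM replicate 2. That library held the least RNA of a squamous epithelium list, 343 CPM in sum against 4984 CPM or more in the others, with the squamous genes Krt5 and Trp63 almost absent. In Dnmt3a(+/+)-BM replicate 3 the smooth muscle myosin Myh11 was at 0.734 CPM, against 26.3 to 297 CPM in the other tumors. Over all 15810 genes tested, edgeR's quasi-likelihood test called 0 genes between the grafts, where a call needs a log2 fold change beyond 1 in size as well as an adjusted p below 0.05. The unadjusted p was below 0.05 for 922 genes with a higher level (5.83%) and for 822 with a lower level (5.2%) in Dnmt3a(+/-)-BM tumors. DESeq2, the tool that the paper names for its own comparison at these thresholds, called 299 of 24067 genes, 1.24%. Of these, 243 were higher and 56 lower with Dnmt3a(+/-)-BM.

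None of the 7 genes, nor Lgr5, passed the test between the grafts, against a background of 0.0% of genes called by edgeR. By point estimate, Clu, Il33, Msln and Yap1 were higher and Ly6a, Anxa1 and Anxa3 lower with Dnmt3a(+/-)-BM. The median log2 fold change of the 7 was 0.55, beside 0.00252 over all genes tested, and it rests on values of opposite sign. Yap1 alone had an unadjusted p under 0.05, 1 of 7 genes, in the direction in which 5.83% of all genes did. DESeq2 called none of the 7 either, and the lowest adjusted p that any of them reached under any alternative was 0.266.

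**Figure D1:**
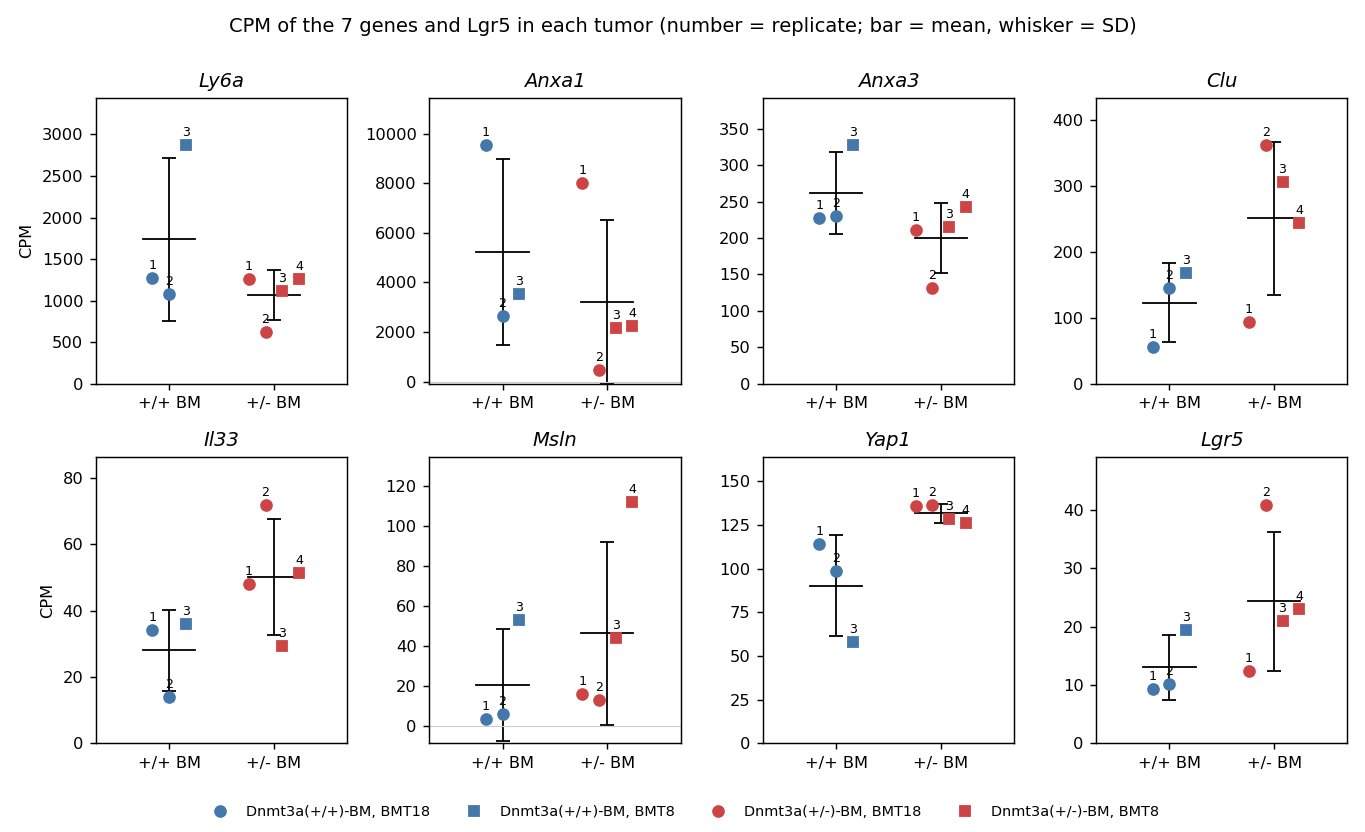
CPM (vertical axis, linear) of the 7 genes and Lgr5 in each tumor, by graft; circles are experiment BMT18, squares BMT8, numbers are replicates, bars are group means and whiskers SD. The groups overlap in every panel but Yap1, where the 4 Dnmt3a(+/-)-BM tumors sit between 126 and 136 CPM and the 3 Dnmt3a(+/+)-BM tumors between 57.9 and 114 CPM.

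Yap1 (ENSMUSG00000053110, GRCm38 chr9:7931999-8004596, minus strand) encodes the coactivator itself. It was at 114, 98.4 and 57.9 CPM in Dnmt3a(+/+)-BM replicates 1 to 3 and at 136, 136, 128 and 126 CPM in Dnmt3a(+/-)-BM replicates 1 to 4. Every tumor with Dnmt3a(+/-)-BM was above every tumor with Dnmt3a(+/+)-BM, a pattern that 6.12% of all genes tested showed in the same direction and 6.32% in the other. The 4 values were within a narrow band (132 ± 5.24 CPM, SD, n = 4), while the controls were spread (90.1 ± 28.9 CPM, SD, n = 3), with replicate 3 lowest. The log2 difference was 0.55 (SE 0.23), with an edgeR p of 0.0450 and an adjusted p of 0.444. Without Dnmt3a(+/+)-BM replicate 3, the tumor with almost no smooth muscle RNA, it was 0.31, and with the experiment in the model it was 0.66 (SE 0.19, edgeR adjusted p = 0.266). Over the 7 tumors, Pearson's r of Yap1 with smooth muscle markers was 0.80 (Spearman's rho 0.07). It was -0.21 without the 2 tumors farthest from the median of that list. With epithelium markers r was -0.84 (rho -0.89), and -0.69 without the 2 farthest tumors. With neutrophil markers r was -0.84 (rho -0.89), and -0.42 without the 2 farthest. The part of smooth muscle, epithelium or neutrophil RNA in the Yap1 difference was not tested.

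RefSeq promoter sequences (GRCm38.p6) were matched for 3 of the 7 genes, at 4 start sites, and the letters GGAATG, the core of the site that TEAD factors bind, were searched on both strands in the 250 bases before each start. All 4 held the hexamer once, where 12.6% of 32851 promoters of the same length held it. The starts were not chosen for the site: no sequence was at hand for the other genes, Il33 has both an upstream and a downstream start, and Yap1 encodes YAP itself. A hexamer match does not show binding or regulation, and neither was tested. In the lines below, 30 bases are given around each match, 5′ to 3′ on the strand of the gene, with the hexamer or its reverse complement in capitals.
Yap1, chr9:8004720-8004749, minus strand: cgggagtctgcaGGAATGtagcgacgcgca
Anxa1, chr19:20390890-20390919, minus strand: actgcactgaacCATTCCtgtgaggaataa
Il33, upstream start, chr19:29924970-29924999, plus strand: gtaacattggcaGGAATGctattagcttat
Il33, downstream start, chr19:29945671-29945700, plus strand: tacacaccctcaCATTCCattcatatcgct
The matches begin 141, 236, 131 and 107 bases before their start sites, in the order listed. The Anxa1 match lies inside an exon of a longer GENCODE transcript, and the 3 genes differed in direction between the grafts, with Anxa1 lower by point estimate and Yap1 and Il33 higher.

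Around Yap1, 17 genes were tested: the Hippo kinases, their scaffolds and partners, Wwtr1 (TAZ, the paralog of YAP), the TEAD factors, Vgll4 and Ajuba. By point estimate 12 were higher and 5 lower with Dnmt3a(+/-)-BM, and the median log2 fold change was 0.28. The Hippo kinases hold YAP back and the TEAD factors act with it, so this split and median give no direction for the pathway. This list, like the others described here, was chosen with earlier results of these data known. A count above the share of all genes is therefore no test of a list. An unadjusted p under 0.05 was found for 3 of the 17, all higher, beside 5.83% of all genes tested in that direction. The groups did not overlap for 3 of the 17, all higher, beside 6.12% of all genes tested. Amot, a scaffold that binds YAP, was between 13.8 and 19.6 CPM with Dnmt3a(+/+)-BM and between 23.6 and 63.1 CPM with Dnmt3a(+/-)-BM, with no overlap (log2 difference 1.28, SE 0.33, edgeR adjusted p = 0.361). Tead1 was also without overlap, at 20.6 to 23.7 CPM against 28.8 to 66.5 CPM (log2 difference 0.91, SE 0.30, edgeR adjusted p = 0.400). Tead2 overlapped between the groups, at 14.3 to 31.6 CPM against 19.5 to 57.8 CPM (log2 difference 1.12, SE 0.45, edgeR adjusted p = 0.433).

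Of 20 listed targets of YAP and TAZ, 11 were higher and 9 lower, with a median log2 fold change of 0.39. An unadjusted p under 0.05 was found for 5, all higher, beside 5.83% of all genes tested in that direction. The groups did not overlap for 3 higher and 3 lower targets of the 20, beside 6.12% and 6.32% of all genes tested. Ccn2, a matricellular protein and a widely used readout of YAP, was at 11.6, 12.7 and 10.3 CPM with Dnmt3a(+/+)-BM and at 17.2, 40.6, 28.5 and 35.6 CPM with Dnmt3a(+/-)-BM (log2 difference 1.40, SE 0.30, edgeR adjusted p = 0.361). The groups did not overlap for Ccn2, nor for Ccdc80 (1.88 on the log2 scale, SE 0.39) and Rbms3 (1.97, SE 0.49). Ankrd1 was close to background, at 0.122 to 0.134 CPM against 0.0998 to 2.00 CPM. The targets did not move as a block: Nuak2, Gadd45a and Nt5e, named here after their values were seen, were lower in all 4 Dnmt3a(+/-)-BM tumors than in any control. Their log2 differences were smaller, at -0.48 (SE 0.23), -0.16 (SE 0.12) and -0.44 (SE 0.20), each with an unadjusted edgeR p above 0.05. For Nuak2 the nearest tumors of the 2 grafts were at 27.0 and 27.1 CPM. Endothelium markers were also read: all 10 were higher with Dnmt3a(+/-)-BM by point estimate, with a median log2 fold change of 1.67. An unadjusted p under 0.05 was found for 7 of the 10, beside 5.83% of all genes tested in that direction. The summed level of the endothelium markers was 19.1 to 34.4 CPM in the controls and 35.1 to 160 CPM with Dnmt3a(+/-)-BM. Examples are Pecam1 (1.56 on the log2 scale, SE 0.46) and Erg (1.62, SE 0.45). Their part in the YAP target values was not tested.

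**Figure D2:**
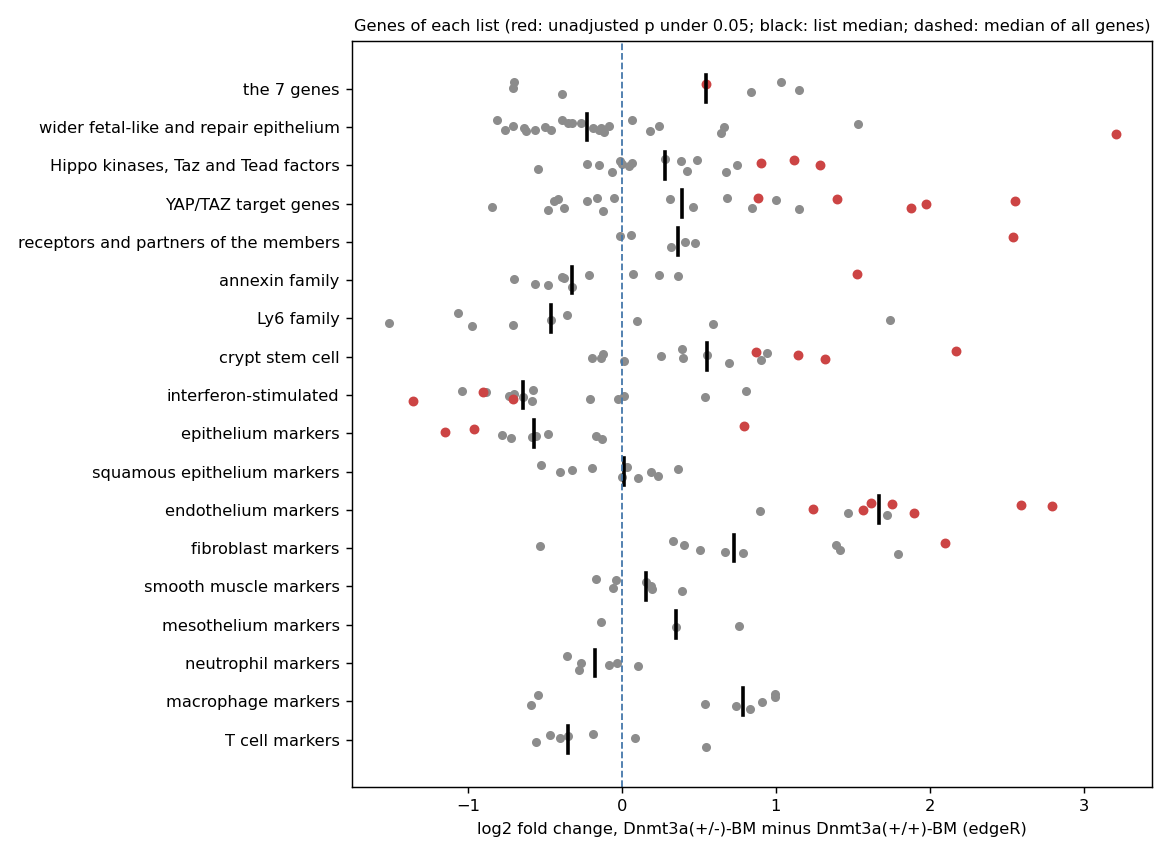
Log2 fold change between the grafts (horizontal axis, edgeR) of every tested gene in each list, 1 point per gene; red points have an unadjusted p under 0.05, black bars are list medians and the dashed line is the median of all genes tested. The 7 genes lie on both sides of 0, while all 10 endothelium markers lie above it with a median of 1.67.

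Ly6a (ENSMUSG00000075602, chr15:74994877-74998031, minus strand) encodes Sca-1, a small surface protein that marks the fetal-like cells and is also made by endothelium, stem cells of the blood and interferon-exposed cells. It was among the most abundant of the 7 genes, at 1267, 1080 and 2869 CPM in Dnmt3a(+/+)-BM replicates 1 to 3. The 4 Dnmt3a(+/-)-BM tumors held 1266, 625, 1110 and 1259 CPM. Control replicate 3 was the highest and Dnmt3a(+/-)-BM replicate 2 the lowest, and the other 5 tumors were within 1080 to 1267 CPM, so the groups overlapped. Between the grafts the log2 difference was -0.71 (SE 0.40, edgeR adjusted p = 0.548) and shrank to -0.15 without Dnmt3a(+/+)-BM replicate 3. RSEM divides reads shared with similar paralogs, and Ly6a has several of them, so its level depends on that division.

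Among 9 tested genes of the Ly6 family, Ly6a included, 3 were higher and 6 lower, and none had an unadjusted p under 0.05. Ly6e, the next most abundant, was between 646 and 1174 CPM and overlapped between the grafts (log2 difference 0.10, SE 0.28). Interferon-stimulated genes were highest in the tumor where Ly6a was highest, but they did not follow Ly6a over the 7 tumors: the mean log2 CPM of 15 such genes was 6.56 in Dnmt3a(+/+)-BM replicate 3 and 3.72 to 5.83 in the other 6 tumors, and the next highest value, 5.83, was that of Dnmt3a(+/-)-BM replicate 2, the tumor with the least Ly6a. Pearson's r with Ly6a was 0.30 (Spearman's rho 0.14) and -0.61 without the 2 tumors farthest from the median of the list. Of the 15 genes, 12 were lower and 3 higher with Dnmt3a(+/-)-BM, and the median log2 fold change of -0.64 turned to 0.034 without Dnmt3a(+/+)-BM replicate 3. Irf7, a driver of the interferon response, was at 146 to 365 CPM in the controls and without overlap at 62.5 to 128 CPM with Dnmt3a(+/-)-BM (log2 difference -1.36, SE 0.38, edgeR adjusted p = 0.372). Oas1a (-0.90, SE 0.25) and Irf1 (-0.71, SE 0.26) were also lower on the log2 scale, each without overlap between the grafts. These were 3 of the 15 genes, beside 6.32% of all genes tested without overlap in that direction. The part of the interferon genes in the Ly6a values was not tested.

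Anxa1 (ENSMUSG00000024659, chr19:20373428-20390944, minus strand) encodes annexin A1, a phospholipid-binding protein that damps inflammation and promotes epithelial repair. It was at 9545, 2653 and 3518 CPM with Dnmt3a(+/+)-BM and at 8010, 469, 2175 and 2246 CPM with Dnmt3a(+/-)-BM. The tumors numbered 1 of either graft were far above the rest, Dnmt3a(+/-)-BM replicate 2 was far below, and the highest tumor held 20.4-fold more than the lowest. This spread exceeded the difference between the grafts, which was -0.70 on the log2 scale (SE 0.86, edgeR adjusted p = 0.810) and turned to 0.06 without Dnmt3a(+/+)-BM replicate 1.

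Large differences between tumors were also seen in keratins of stratified squamous epithelium, the lining of the skin, esophagus and anal canal. Krt5, named after its values were seen, was at 5158, 927 and 1368 CPM with Dnmt3a(+/+)-BM and at 5963, 0.0815, 1218 and 1487 CPM with Dnmt3a(+/-)-BM. Krt13 was at 8153 and 7206 CPM in the 2 tumors that had the most Anxa1, between 1251 and 1736 CPM in 4 others, and at 46.7 CPM in Dnmt3a(+/-)-BM replicate 2. Krt14 ran from 149 CPM in that tumor to 7171 CPM, and Trp63, the squamous transcription factor, from 0.0204 to 196 CPM. Over the whole list of 10 squamous markers, 5 were higher and 5 lower with Dnmt3a(+/-)-BM (median log2 fold change 0.01), and the summed level was 4984 to 26954 CPM in the controls and 343 to 28784 CPM with Dnmt3a(+/-)-BM. The tumors fall into 3 sets on this list, with 2 high, 4 in the middle and 1 low, and Anxa1 fell into the same 3 sets, so no correlation is given. Without both tumors numbered 1, the log2 difference of Anxa1 was -0.90 (SE 0.65, edgeR adjusted p = 0.702), and without Dnmt3a(+/-)-BM replicate 2 it was -0.32 (SE 0.68, edgeR adjusted p = 0.977). The part of squamous epithelium in the Anxa1 level was not tested.

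**Figure D3:**
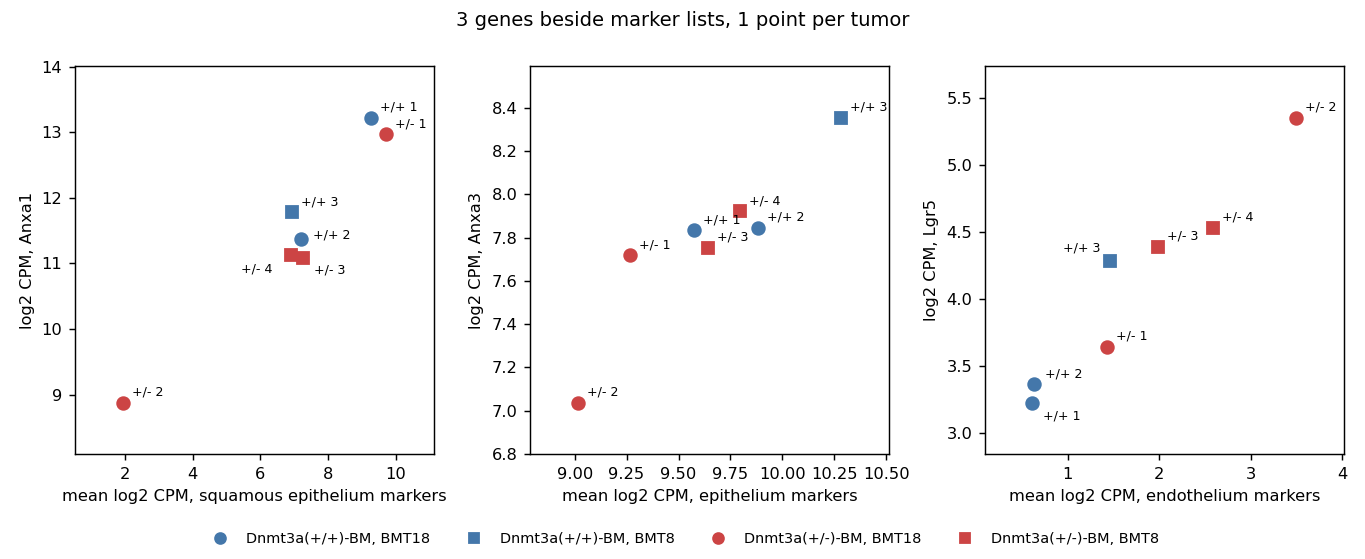
Log2 CPM of Anxa1, Anxa3 and Lgr5 (vertical axes) against the mean log2 CPM of a marker list (horizontal axes) in each tumor; colors are grafts, circles BMT18 and squares BMT8, and labels give the replicate. Anxa1 falls into the same 3 sets of tumors as the squamous list, with Dnmt3a(+/-)-BM replicate 2 alone at the bottom, and Lgr5 has the same order of tumors as the endothelium list.

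Anxa3 (ENSMUSG00000029484, chr5:96793339-96845966, plus strand), another annexin and one of the genes raised with Ly6a in injured crypts, was measured at similar levels in most tumors. Its levels were 228, 230 and 327 CPM with Dnmt3a(+/+)-BM and 211, 131, 216 and 242 CPM with Dnmt3a(+/-)-BM. Replicate 3 of the controls was again the highest and Dnmt3a(+/-)-BM replicate 2 the lowest, and the remaining 5 tumors were within 211 to 242 CPM. Anxa3 differed by -0.39 on the log2 scale (SE 0.25, edgeR adjusted p = 0.584), and by -0.20 without Dnmt3a(+/+)-BM replicate 3 or -0.21 without Dnmt3a(+/-)-BM replicate 2. Columnar epithelium markers had the same extremes, with a mean log2 CPM of 10.3 in Dnmt3a(+/+)-BM replicate 3 and 9.01 in Dnmt3a(+/-)-BM replicate 2. Of these 10 markers, 9 were lower with Dnmt3a(+/-)-BM (median log2 fold change -0.57). Cdx1, a homeobox factor of gut identity, was lower without overlap (-1.15, SE 0.28), as was Lgals4 (-0.96, SE 0.38), while Cdx2 was higher (0.79, SE 0.29). These were the 2 of 10 markers without overlap in that direction, beside 6.32% of all genes tested.

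In the annexin family, 11 genes were tested, of which 4 were higher and 7 lower with a median log2 fold change of -0.33. Anxa6, which is known from muscle and endothelium rather than from repair epithelium, was the exception in size: it was at 30.7, 25.9 and 34.2 CPM with Dnmt3a(+/+)-BM and at 42.8, 169, 76.5 and 60.4 CPM with Dnmt3a(+/-)-BM (log2 difference 1.53, SE 0.46, edgeR adjusted p = 0.377). All 4 values exceeded those of the controls, a pattern that 6.12% of all genes tested showed in that direction.

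Clu (ENSMUSG00000022037, chr14:65968483-65981547, plus strand) encodes clusterin, a secreted chaperone that marks the rare revival stem cells seen after damage. It was at 55.6, 145 and 168 CPM with Dnmt3a(+/+)-BM. With Dnmt3a(+/-)-BM it was at 92.8, 361, 306 and 244 CPM, so replicate 1 lay among the controls and the other 3 above them all. For Clu the log2 difference was 1.03 (SE 0.52, edgeR adjusted p = 0.509). Without Dnmt3a(+/-)-BM replicate 1 it was 1.34 (SE 0.40, edgeR adjusted p = 0.267), and without Dnmt3a(+/+)-BM replicate 1 it was 0.68. These are the 2 tumors rich in squamous markers, and they had the least Clu; without both, the log2 difference was 0.99 (SE 0.26, edgeR adjusted p = 0.462).

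Il33 (ENSMUSG00000024810, chr19:29925114-29960718, plus strand) encodes an alarmin that is stored in the nuclei of epithelial, endothelial and fibroblastic cells and released on injury. It was at 34.0, 14.0 and 36.0 CPM with Dnmt3a(+/+)-BM and at 48.0, 71.9, 29.3 and 51.3 CPM with Dnmt3a(+/-)-BM. Dnmt3a(+/-)-BM replicate 3 lay among the controls, and the other 3 were above them. The log2 difference was 0.84 (SE 0.40, edgeR adjusted p = 0.484) and 0.51 without Dnmt3a(+/+)-BM replicate 2. Within BMT18 the log2 difference was 1.34 (SE 0.52), and within BMT8, with 1 control and no test, it was 0.11.

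The receptor of Il33, Il1rl1 (ST2), found on mast cells, regulatory T cells and other cells, was at 8.97, 13.8 and 15.7 CPM with Dnmt3a(+/+)-BM and at 19.8, 224, 22.8 and 31.7 CPM with Dnmt3a(+/-)-BM. The groups did not overlap, as for 6.12% of all genes tested in that direction. Dnmt3a(+/-)-BM replicate 2, which also had the most Il33, was far above all others. The log2 difference was 2.54 (SE 0.95, edgeR adjusted p = 0.420). Il1rap, the shared second chain of the receptor, overlapped (0.06, SE 0.48), as did the annexin A1 receptors Fpr1 (0.32, SE 0.62) and Fpr2 (0.41, SE 0.63) and the clusterin receptors Vldlr (-0.01, SE 0.40) and Lrp8 (0.47, SE 0.29). Fibroblast markers were highest in Dnmt3a(+/-)-BM replicate 2, at a summed 1097 CPM against 189 to 399 CPM in the other 6. So were endothelium (160 against 19.1 to 77.0 CPM), macrophage (244 against 56.3 to 113 CPM) and T cell markers (25.1 against 5.16 to 20.4 CPM). Epithelium, squamous epithelium, neutrophil and mesothelium sums were lowest in that tumor. The part of these cell types in the Il33 and Il1rl1 values was not tested.

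Msln (ENSMUSG00000063011, chr17:25748613-25754378, minus strand) encodes mesothelin, a surface glycoprotein of mesothelium that fetal gut and many carcinomas also make. It was the most variable of the 7, at 3.60, 6.04 and 53.2 CPM with Dnmt3a(+/+)-BM and at 16.4, 13.2, 44.3 and 112 CPM with Dnmt3a(+/-)-BM. The split followed the experiment: the 3 BMT8 tumors held 44.3 to 112 CPM and the 4 BMT18 tumors 3.60 to 16.4 CPM, without overlap, as in 7.69% of all genes with BMT8 higher and 6.84% with BMT8 lower. With the graft in the model, the log2 difference between BMT8 and BMT18 was 2.84 (SE 0.40), with an edgeR p of 0.000263 and an adjusted p of 0.191, in a comparison where 19.4% of genes had an unadjusted p under 0.05 and 0.00633% were called.

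Between the grafts, the log2 difference of Msln was 1.15 (SE 1.09, edgeR adjusted p = 0.730). With the experiment as a covariate the value was 1.17 with a smaller error (SE 0.41, edgeR adjusted p = 0.293). Within BMT18, both Dnmt3a(+/-)-BM tumors were above both controls (log2 difference 1.63, SE 0.38, edgeR adjusted p = 0.492), and within BMT8 the single control lay between the 2 Dnmt3a(+/-)-BM tumors. Leaving out Dnmt3a(+/+)-BM replicate 3 gave 3.25, leaving out its replicates 1 or 2 gave 0.65 or 0.71, and leaving out Dnmt3a(+/-)-BM replicate 4 gave 0.24. Of the 6 mesothelium markers in the table, Wt1 had 0 counts in every tumor, and Upk3b reached 0.122 CPM, Lrrn4 0.0270 CPM, Upk1b 0.649 CPM, Gpm6a 1.25 CPM and Bnc1, which squamous epithelium also makes, 10.6 CPM. The summed level of the list was 2.94 to 8.44 CPM in the controls and 0.917 to 12.5 CPM with Dnmt3a(+/-)-BM, and its part in the Msln values was not tested.

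**Figure D4:**
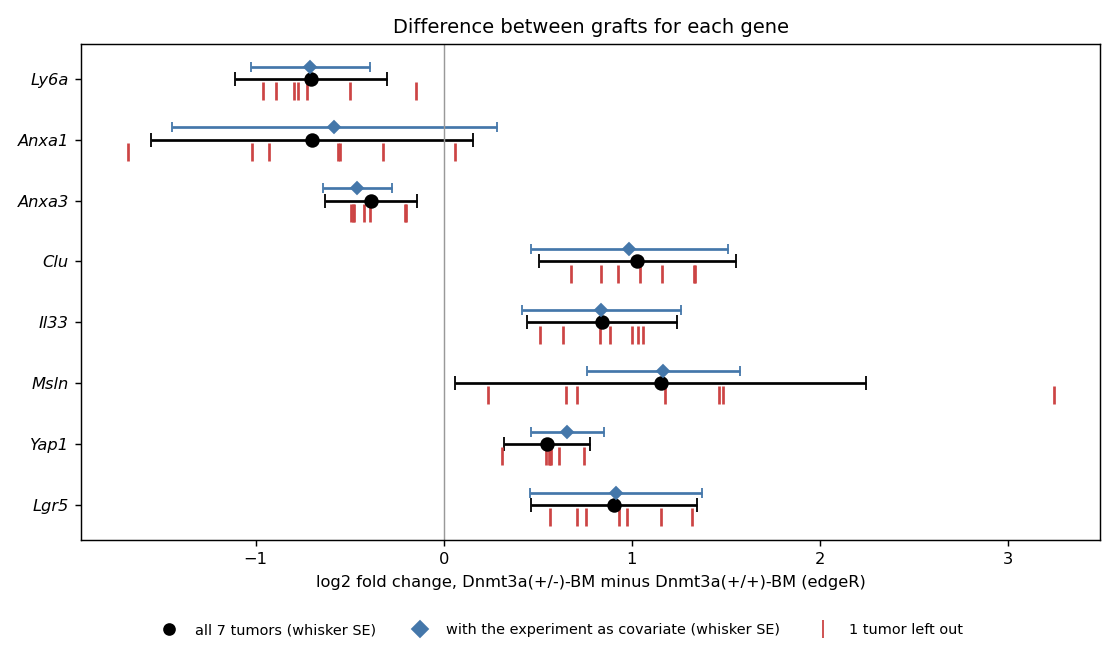
Log2 fold change between the grafts (horizontal axis, edgeR) of the 7 genes and Lgr5: black points with SE are all 7 tumors, blue diamonds with SE have the experiment as a covariate, and red ticks each leave out 1 tumor. The ticks of Anxa1 cross 0, from -1.68 to 0.06, those of Msln reach from 0.24 to 3.25, and those of Yap1 stay between 0.31 and 0.75.

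Lgr5 (ENSMUSG00000020140, chr10:115450311-115587780, minus strand), the receptor that marks crypt base stem cells, was low in every tumor. It was at 9.30, 10.2 and 19.5 CPM with Dnmt3a(+/+)-BM and at 12.4, 40.8, 20.9 and 23.1 CPM with Dnmt3a(+/-)-BM. Only Dnmt3a(+/-)-BM replicate 1 lay among the controls, and replicate 2 was the highest of all. The log2 difference was 0.91 (SE 0.44, edgeR adjusted p = 0.492), and 0.56 without replicate 2. Of 15 crypt stem cell genes, Lgr5 included, 12 were higher with Dnmt3a(+/-)-BM, and the median log2 fold change was 0.55. An unadjusted p under 0.05 was found for 4 of the 15, all higher, beside 5.83% of all genes tested in that direction. The groups did not overlap for 3 of the 15, all higher, beside 6.12% of all genes tested. Axin2, a feedback target of Wnt, was at 60.6 to 77.4 CPM against 86.6 to 203 CPM without overlap (log2 difference 1.14, SE 0.29, edgeR adjusted p = 0.361). Tnfrsf19 (2.17, SE 0.59), Znrf3 (1.32, SE 0.41) and Rnf43 (0.87, SE 0.31) were also higher on the log2 scale. The order of the 7 tumors by Lgr5 was that of the endothelium markers (Spearman's rho 1.00, Pearson's r 0.96, and r 0.91 without the 2 tumors farthest from the median of the list), and the points share their libraries and scaling.

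The repair genes were then set against Lgr5 within each tumor, as the log2 ratio of their counts, which does not depend on library size. Ly6a stood 7.09, 6.72 and 7.20 log2 units above Lgr5 with Dnmt3a(+/+)-BM and 6.67, 3.94, 5.73 and 5.77 with Dnmt3a(+/-)-BM. Every Dnmt3a(+/-)-BM tumor was below every control, with replicate 1 just under them. Lgr5 itself was higher by point estimate with Dnmt3a(+/-)-BM (log2 difference 0.91), which lowers the ratio even of a gene that does not change. That Lgr5 difference was 1.47 within BMT18 and 0.18 within BMT8, which has 1 control. The Ly6a ratio differed by -1.60 within BMT18 and by -1.45 within BMT8. How many of all genes separate the grafts by this ratio was not computed. Over all 7 tumors the Ly6a ratio differed by -1.48 on the log2 scale. The exact permutation p was 0.0571 (two-sided, 35 splits of the 7 tumors, smallest p 0.0286), and 0.300 after Benjamini-Hochberg adjustment over the 7 ratios. Without Dnmt3a(+/-)-BM replicate 2 the ratio difference was -0.95.

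For Anxa3 the log2 ratio was 4.39 ± 0.285 (SD, n = 3) with Dnmt3a(+/+)-BM and 3.13 ± 1.02 (SD, n = 4) with Dnmt3a(+/-)-BM, and the groups differed by -1.26 (exact permutation p = 0.0857, adjusted 0.300). For Anxa1 it ranged from 3.52 to 10.0 over the tumors, with a difference of -1.97 (exact permutation p = 0.286, adjusted 0.667). These 3 ratios were lowest in Dnmt3a(+/-)-BM replicate 2, the tumor with the most Lgr5, and without it the differences were -0.78 for Anxa3 and -0.96 for Anxa1. The differences for Clu (0.16), Il33 (0.03) and Yap1 (-0.25) were small beside their spread, with adjusted exact permutation p of 0.833, 0.886 and 0.833. The Msln ratio differed by 0.76 and ran from -1.63 to 2.28, so Msln had fewer counts than Lgr5 in 3 of the tumors; the difference was 1.60 without Dnmt3a(+/+)-BM replicate 3 and 0.18 without Dnmt3a(+/-)-BM replicate 4. With the epithelium markers as the reference in place of Lgr5, the difference for Ly6a was -0.14 (exact permutation p = 0.629, adjusted 0.629), while that for Anxa3 turned to 0.08 and that for Yap1 to 1.09 (exact permutation p = 0.0571, adjusted 0.200).

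**Figure D5:**
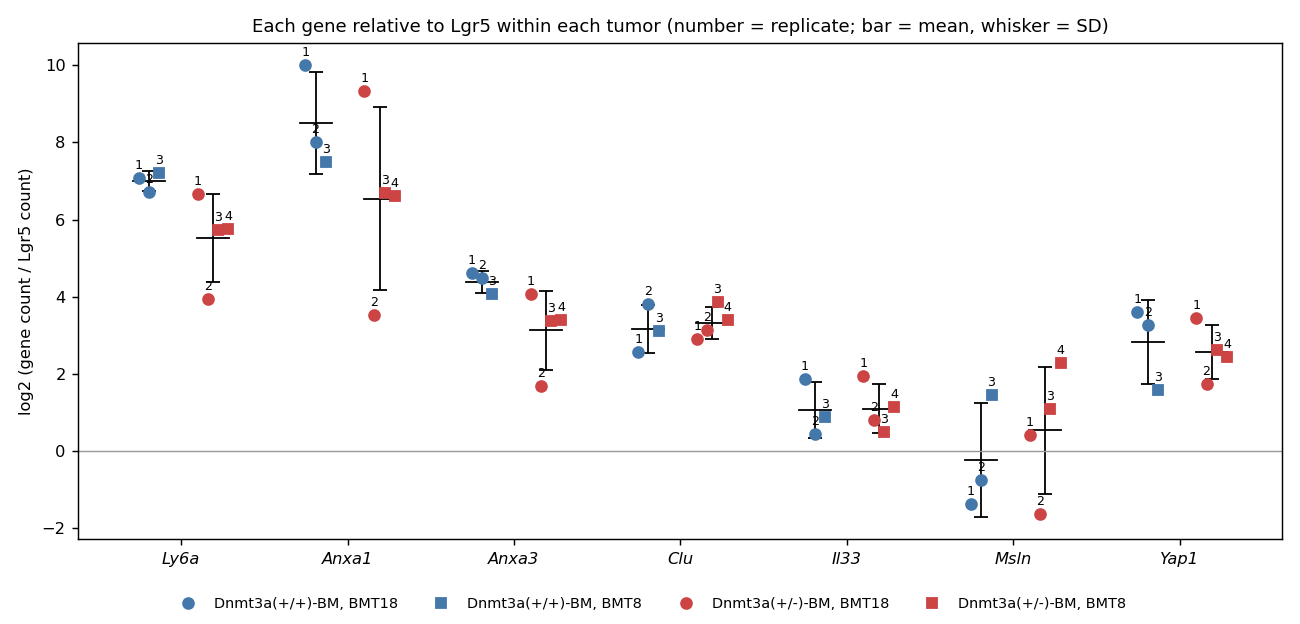
Log2 ratio of each gene's count to the Lgr5 count (vertical axis) in each tumor, by graft; circles are BMT18, squares BMT8, numbers are replicates, bars are means and whiskers SD. Among the genes shown, Ly6a is the 1 gene whose ratios do not overlap, at 6.72 to 7.20 with Dnmt3a(+/+)-BM and 3.94 to 6.67 with Dnmt3a(+/-)-BM. Lgr5, the denominator, was itself higher by point estimate with Dnmt3a(+/-)-BM.

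Per kilobase of merged exon, the mean level over the 7 tumors was highest for Anxa1 (1404 CPM per kilobase) and Ly6a (1123), then Anxa3 (62.2), Clu (57.0), Il33 (14.1), Yap1 (12.3) and Msln (11.6), with Lgr5 last (1.90). The steps from Ly6a to Anxa3, from Clu to Il33 and from Msln to Lgr5 held in 7 of 7 tumors. The neighbours Anxa1 and Ly6a were in that order in 3 of 7 tumors, and Anxa3 and Clu, Il33 and Yap1, and Yap1 and Msln in 4 of 7, so these levels did not differ beyond the spread between tumors. The spread itself separated the genes: the SD of log2 CPM was 1.78 for Msln and 1.44 for Anxa1, larger than that of 96.7% and 94.0% of genes tested, and 0.39 for Anxa3 and 0.44 for Yap1, close to the median of 0.42.

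Over the 7 tumors the repair genes did not vary as 1 group. Of 21 pairs, 10 had a Pearson's r above 0 and 11 below 0 on log2 CPM, and 15 kept the sign without the 2 tumors farthest from the median of the gene named first. Ly6a and Anxa3 had the highest r (0.94, Spearman's rho 0.54), which rests on the 2 extreme tumors and was 0.10 without them. Anxa1 and Clu had the lowest (r -0.89, rho -0.96), and r was -0.88 without the 2 farthest tumors. Clu went with Lgr5 (r 0.88, rho 0.93; 0.77 without the 2 farthest), and Anxa1 went against it (r -0.86, rho -0.86; -0.48 without them). Yap1 was lowest where Ly6a was highest (r -0.83, rho -0.54), but r was 0.54 without the 2 farthest tumors. These values describe 7 libraries that share their scaling and carry no test.

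By Pearson's r on log2 CPM over the 7 tumors, the 3 tested genes most like Ly6a were Tbcc (0.995), Elovl1 and Pdlim2 (0.979). Those most like Anxa1 were Tmem40 (0.997), Gfra1 and BC064078 (0.996), and Tmem40 ran from 2.34 CPM in Dnmt3a(+/-)-BM replicate 2 to 57.3 CPM. Those most like Anxa3 were Chmp2a (0.999), Gm16096 and Pdlim1 (0.991), and those most like Clu were Drosha (0.987), Mettl3 and Gm13657 (0.983). For Il33 they were Lmtk3 (0.975), Cep170 and Fndc4 (0.973), for Msln Alms1-ps2 (0.985), Ubn2 and Gm37697 (0.983), and for Yap1 Tspyl4 (0.990), Ndrg1 and Jmy (0.986). Lgr5 was most like Gpr4 (0.993), Scamp3 and Nes (0.991). They are the highest values among 15810 genes over 7 tumors and carry no test.

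A wider list of 24 genes of the fetal-like and repair epithelium was described in the same way. By point estimate 7 were higher and 17 lower with Dnmt3a(+/-)-BM, the median log2 fold change being -0.23, against 0.28 and 0.39 for the Hippo and YAP target lists. Spp1 (osteopontin, a secreted matrix protein also made by macrophages) was the 1 gene of the 24 with an unadjusted p under 0.05. In that direction 5.83% of all genes tested had such a p. Spp1 was at 1.75, 4.20 and 11.9 CPM with Dnmt3a(+/+)-BM and at 4.04, 158, 10.9 and 46.0 CPM with Dnmt3a(+/-)-BM, with overlap (log2 difference 3.21, SE 1.31, edgeR adjusted p = 0.435). Il1rn, the natural antagonist of the interleukin-1 receptor, was named after its values were seen as the 1 gene of the list without overlap, at 189 to 270 CPM against 82.0 to 173 CPM (log2 difference -0.64, SE 0.28), a pattern that 6.32% of all genes tested showed in that direction.

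Other cell type markers were read in full beside these genes. Fibroblast markers were higher in 9 of 10 cases with a median log2 fold change of 0.73, or 0.17 without Dnmt3a(+/-)-BM replicate 2. Of these, Pdgfra alone had an unadjusted p under 0.05 (2.10, SE 0.82), beside 5.83% of all genes tested in that direction. Macrophage markers were higher in 6 of 8 cases with a median of 0.79, or 0.078 without that tumor, and the most abundant were C1qa and C1qb. Smooth muscle (Myh11, Acta2), neutrophil (Ly6g, S100a9), T cell (Lck, Cd3g) and mesothelium (Bnc1, Gpm6a) markers had medians of 0.15, -0.17, -0.35 and 0.35, and none of their genes had an unadjusted p under 0.05. Their part in the values above was not tested.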

How the data were processed

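RNA of 7 whole colon tumors was sequenced after poly(A) selection with a directional kit, and no source says that any tumors shared a mouse. The library names of Dnmt3a(+/-)-BM replicates 2, 3 and 4 end in an added number that Dnmt3a(+/-)-BM replicate 1 and the controls lack. Its meaning is not given. After trimming and alignment to mm10 with STAR 2.7.3a, the authors deposited the estimated counts per gene that RSEM v1.2.31 gave, as whole numbers without normalization; the annotation release is not given in the sources used here. Symbols were matched to 42462 of 43346 identifiers with GENCODE M21 on GRCm38. Identifiers with no symbol took 0.104% of all counts.

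The grafts were compared by edgeR 4.0.16 (R 4.3.3) with TMM scaling, genes kept by filterByExpr, a quasi-likelihood fit without covariates, and p-values adjusted after Benjamini-Hochberg over all genes tested. SE is the log2 fold change divided by the root of the F statistic. Log2 CPM used a prior count of 2 and log2 ratios to Lgr5 a prior count of 0.5, with exact permutation tests. The edgeR and DESeq2 1.42.0 steps were tested on simulated data with 200 changed genes. Few false calls were required only where the simulated dispersion was the same for all genes. The check therefore cannot decide between the 2 tools on these tumors. The 18 lists (the 7 genes as 1 list, and 9 of cell type markers) were chosen with earlier results of these data known. Named were the 7 genes and Lgr5, at most 4 genes a list with an unadjusted p under 0.05 (else the 2 most abundant), and the 3 genes most like each gene by Pearson's r. Alternatives were DESeq2, other scalings, no filter, robust dispersion, experiment and replicate terms, and each tumor left out. No pair of tumors agreed within sampling noise.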

Additional observations from a re-analysis of the deposited data

Results flagged for a closer look

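Within the 4 Dnmt3a(+/-)-BM tumors, 72 values were looked at for a tumor far from the other 3, and 2 were past Dixon's 95% limit; chance alone flags about 1 in 20 groups. The CPM of Il1rl1, the receptor of Il33, was 224 in Dnmt3a(+/-)-BM replicate 2, with a gap of 0.942 of the range of the group. The mean log2 CPM of the fibroblast markers was 5.60 in the same tumor, with a gap of 0.919 of the range. The 3 Dnmt3a(+/+)-BM tumors were too few for this look.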

How the results depend on the processing

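No alternative called any of the 7 genes, and 398 of 423 recomputed values kept their direction and call or stayed within the spread between tumors. Part of this agreement was fixed in advance. No gene was called in the main fit, and values without a test took over the main call. Ratio tests with a tumor left out, or on numbered pairs, cannot reach a p below 0.05. A list median within the spread counted as kept even where its sign turned, as for the interferon list. DESeq2 called 299 genes where edgeR called 0 under every other setting. Library size alone as the scaling moved the median log2 fold change of all genes from 0.00252 to 0.21 and the split at an unadjusted p under 0.05 from 922 higher and 822 lower to 1687 and 288; list medians moved to 0.49 (Hippo), 0.79 (crypt stem cell) and 0.047 (neutrophil). With each tumor left out in turn, the log2 difference ran from -1.68 to 0.062 for Anxa1, and list medians from 0.083 to 0.38 (Hippo), 0.12 to 0.70 (YAP/TAZ targets), 0.28 to 0.83 (crypt stem cell), -0.87 to 0.034 (interferon), 0.078 to 1.04 (macrophage), 0.17 to 1.02 (fibroblast), -0.48 to -0.030 (wider fetal-like), -0.41 to -0.088 (annexin), -0.77 to -0.24 (Ly6), -1.45 to 1.02 (squamous) and -0.53 to 0.55 (smooth muscle). For ratios to Lgr5, the ranges were -0.14 to 0.48 (Clu), -0.28 to 0.43 (Il33), -0.88 to 0.14 (Yap1), -1.86 to -0.95 (Ly6a), -2.90 to -0.96 (Anxa1), -1.58 to -0.78 (Anxa3) and 0.18 to 1.60 (Msln); the values nearest 0 for Ly6a, Anxa1 and Anxa3 were without Dnmt3a(+/-)-BM replicate 2. The Yap1 ratio reversed to 0.093 with the crypt stem cell list as reference, to 1.09 with epithelium markers and to 0.96 within BMT8; Anxa3 turned to 0.079 with epithelium markers, Clu to -0.18 within BMT18 and Il33 to -0.070 within BMT8. The cause was not tested.

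Same-numbered tumors share only a number: their deviations correlated at 0.57, 0.07 and -0.04 for numbers 1 to 3. With the replicate number as a block, in which Dnmt3a(+/-)-BM replicate 4 has no partner, 0 genes were called and the log2 difference was 0.97 for Clu (edgeR adjusted p = 0.413), -1.13 for Anxa1 and 0.62 for Yap1; the blocked ratio difference for Ly6a was -1.56. With 4 tumors against 3, no permutation p can be below 0.0286.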
